A study of Homo sapiens with 9 samples.

Results

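FTO and ALKBH1 to ALKBH8 are the human members of the AlkB family of dioxygenases, and all 9 were found by symbol among the 26830 genes of the deposited tables. All 9 had enough counts to be tested, so none was lost to a filter on low values. The libraries were made from poly(A) RNA of cells labelled NB4, an established leukaemia cell line, after 48 h with FB23-2 (3 libraries), with FB23 (3 libraries) or with the solvent DMSO (3 libraries). The labels give FB23-2 and FB23 the treatment FTO inhibition and DMSO the treatment Ctrl, and they name no genetic change in any group. Doses were not given in the sources used here, so the compounds could be compared at the same time but not at a known common dose.

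AlkB enzymes use iron, oxygen and the co-substrate 2-oxoglutarate to oxidise methyl groups and other modifications, which for many of them removes the modification from a nucleic acid. FTO and ALKBH5 remove the methyl group of N6-methyladenosine (m6A) from RNA, and FTO is known as a driver in some acute myeloid leukaemias. Other members repair alkylated DNA or act on transfer RNA, and ALKBH4 and ALKBH7 are known for roles outside nucleic acid demethylation. Both compounds were made to block the FTO enzyme, so a change in FTO transcript is a separate question from a change in FTO activity, which was not measured here.

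Library totals were 12360291 to 38410750 expected counts (reads per gene as estimated by RSEM), and the 9 genes together held 3768 to 11891 of them per library. NB4 is known as a promyelocytic line, and the data go against that: the granule genes MPO and CTSG were at 0 counts in all 9 libraries, the 5 granule markers summed to at most 1.77 TPM (transcripts per 1000000), and all 7 erythroid markers were at 1 TPM or more. The erythroid markers summed to 2459 to 2799 TPM with FB23-2, 23190 to 24950 TPM with FB23 and 20220 to 21390 TPM with DMSO. The 4 epithelial markers summed to 2889 to 3081 TPM with FB23-2, 726 to 750 TPM with FB23 and 675 to 683 TPM with DMSO. Among them KRT8, KRT18 and KRT19 were higher with FB23-2 than with DMSO in all libraries, while EPCAM was lower (24.3 to 26.8 TPM with FB23-2, against 71.2 to 77.5 TPM with DMSO). With FB23 the markers were split: KRT8 and KRT18 were higher than with DMSO in all libraries, while EPCAM and KRT19 were lower. EPCAM had 49.8 to 57.7 TPM with FB23, and KRT19 had 64.2 to 70.2 TPM with FB23 and 87.0 to 92.7 TPM with DMSO. The 5 myeloid surface markers summed to 52.5 to 54.9 TPM with FB23-2, 42.2 to 44.0 TPM with FB23 and 49.9 to 50.8 TPM with DMSO. Compared with DMSO, CSF3R and FCGR1A were higher with FB23-2 in all libraries, ITGAM was lower, and CD33 and CD14 overlapped. The part of these shifts in the results below was not tested, and in bulk RNA fewer cells of a type and less RNA per cell cannot be told apart. The labels do not say whether replicates are separate cultures. The p-values test group differences against the spread between libraries, and that spread may be technical.

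The scale of the values matters for the smaller changes. Fold changes are given on CPM (counts per 1000000 counts of the library) scaled with TMM factors, which set the typical gene at no change, and levels are given in TPM, which is per length. Between FB23-2 and DMSO, a gene's log2 change in TPM lay 0.25 above its change in CPM, of which 0.15 came from the TMM factors and 0.10 from longer transcripts per read with FB23-2. For FB23-2 against FB23 the offset was 0.24, and for FB23 against DMSO it was 0.01. A log2 change in CPM between 0 and about -0.25 with FB23-2 can therefore stand beside a higher mean TPM.

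At baseline the 9 genes spanned about the middle to the upper part of all tested genes. In DMSO, ALKBH7 was the most abundant at 73.3 ± 1.63 TPM (SD, n = 3), followed by ALKBH5 at 47.6 ± 0.415, ALKBH2 at 43.4 ± 3.95, ALKBH6 at 32.1 ± 1.35, ALKBH4 at 21.06 ± 1.35 and FTO at 13.4 ± 0.64 TPM. FTO thus stood near the median of tested genes (percentile 50.6), and ALKBH5 at percentile 78.7. The 3 lowest members, ALKBH1 (11.3 ± 0.949 TPM), ALKBH8 (10.7 ± 0.885) and ALKBH3 (10.2 ± 0.776), overlapped in their library values, while every pair of neighbours above them was separated.

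**Figure D1:**
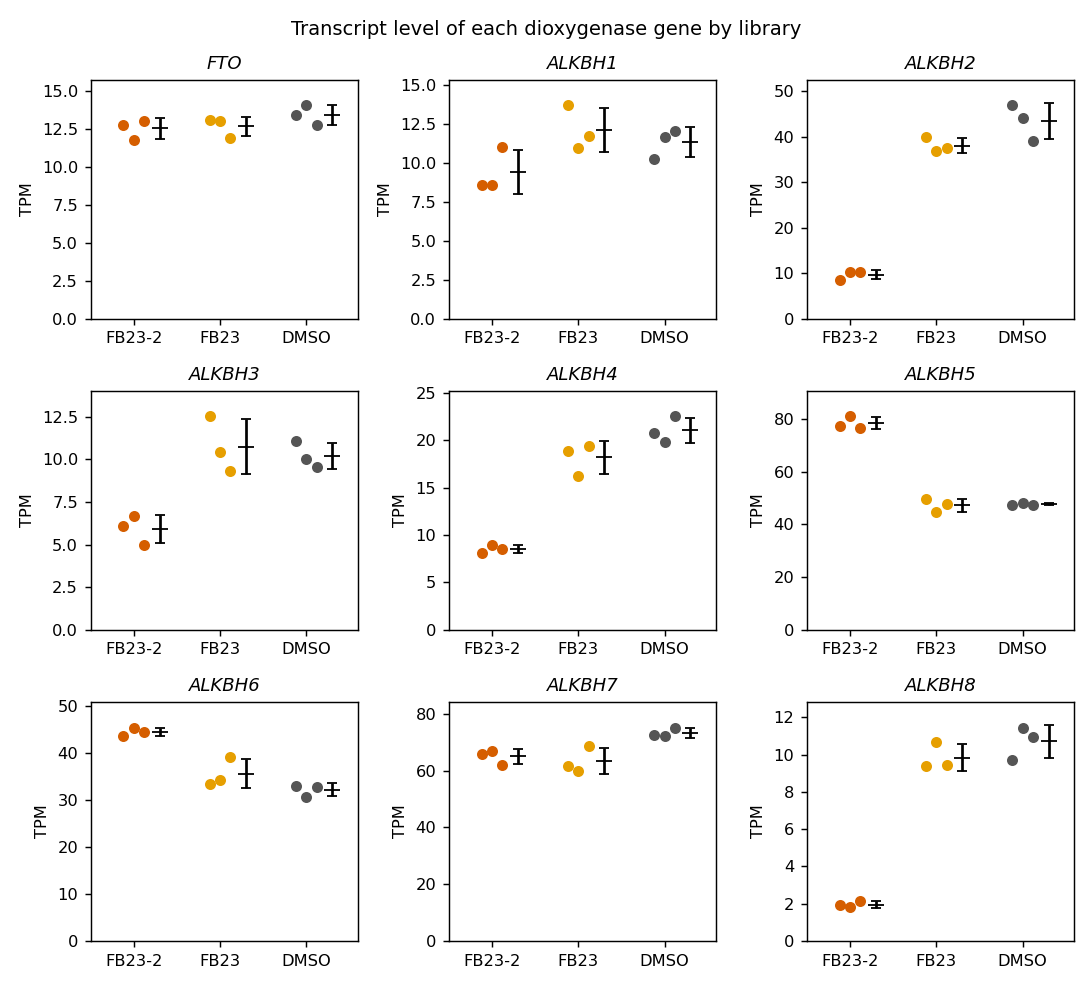
Level of each gene in TPM (y axis, from 0) in the 3 libraries of each group (points; x axis), with the mean and SD as a black bar to the right of the points. ALKBH2, ALKBH3, ALKBH4 and ALKBH8 lay lower in all FB23-2 libraries than in any other library, and ALKBH5 and ALKBH6 lay higher.

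With FB23-2 against DMSO, ALKBH8 and ALKBH2 fell most, to 1.95 and 9.67 TPM with FB23-2 against 10.7 and 43.4 TPM with DMSO, ALKBH4 and ALKBH3 fell too, and ALKBH5 rose. All 9 members were called, 7 lower and 2 higher (edgeR quasi-likelihood test at an adjusted p under 0.05), in a comparison in which 82.6% of all tested genes were called, 41.3% as higher and 41.3% as lower. A call is therefore the usual state of a gene here, and the sizes carry the information. The median log2 fold change of the members was -0.53, against 0.01 over all tested genes. In absolute size the members' median was 0.53, below the 0.73 of all tested genes, and 4 of the 9 were called with a change of at least 1 on the log2 scale, as were 36.8% of tested genes. CPM ranges did not overlap between the groups for 9 of 9 members and for 84.2% of genes.

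FTO was the least changed of the called-lower members. Its level was 12.8, 11.8 and 13.07 TPM in the FB23-2 libraries, against 13.45, 14.08 and 12.8 TPM in the DMSO libraries. These ranges overlap, with the lowest DMSO library at the level of the middle FB23-2 library. In CPM, where the groups did not overlap (29.8 to 32.8 with FB23-2, against 37.6 to 41.4 with DMSO), FTO fell by 0.35 ± 0.06 (SE) on the log2 scale (edgeR adjusted p = 7.33e-05). On log2 TPM plus 0.1 the difference was -0.10 and was not called (limma adjusted p = 0.222).

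ALKBH5, the other m6A demethylase, went the opposite way. It had 77.48, 80.95 and 76.55 TPM with FB23-2, against 47.41, 48.08 and 47.32 TPM with DMSO. Every FB23-2 library was above every DMSO library by a wide gap. In CPM it rose 1.39-fold (log2 0.47 ± 0.05, 95% interval 0.36 to 0.58, edgeR adjusted p = 2.17e-07), and in TPM the difference was larger (log2 0.72). The ratio of ALKBH5 to FTO within a library needs no scaling between libraries. It was 6.05, 6.86 and 5.86 with FB23-2, against 3.52, 3.42 and 3.70 with DMSO, without overlap (exact permutation test, two-sided, p = 0.1, the smallest that 3 against 3 libraries can give).

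The DNA repair members both fell. ALKBH2, which repairs alkylated bases in double-stranded DNA, had 8.5, 10.36 and 10.16 TPM with FB23-2, against 46.95, 44.18 and 39.16 TPM with DMSO. The groups lay far apart. It fell by 2.42 ± 0.11 on the log2 scale in CPM (edgeR adjusted p = 5.05e-13), a 5.35-fold lower level. ALKBH3, which acts on single-stranded DNA and on RNA, had 6.07, 6.65 and 5.0 TPM with FB23-2, against 11.05, 10.02 and 9.53 TPM with DMSO, with no overlap. Its fall of 1.02 ± 0.14 (edgeR adjusted p = 2.84e-06) rests on 60 to 123 expected counts per FB23-2 library, and ALKBH2 had similarly few there (69 to 97). The ratio of ALKBH2 to ALKBH3 was 1.40 to 2.03 with FB23-2, against 4.11 to 4.41 with DMSO (exact permutation test, two-sided, p = 0.1, again the smallest possible). These ratios did not overlap either.

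Of the members that act on transfer RNA, ALKBH8 fell most of all 9. ALKBH8 hydroxylates and methylates wobble uridines, a modification used in decoding selenoproteins. It had 1.92, 1.8 and 2.13 TPM with FB23-2, against 9.73, 11.45 and 10.95 TPM with DMSO. The groups were far apart, and the 78 to 119 expected counts per FB23-2 library were well above 0. It fell by 2.71 ± 0.10 (edgeR adjusted p = 2.46e-14), a 6.55-fold lower level, and 94.1% of tested genes had a smaller absolute change. ALKBH1, which demethylates transfer RNA and is found in part in mitochondria, had 8.59, 8.61 and 11.05 TPM with FB23-2, against 10.27, 11.67 and 12.08 TPM with DMSO. One FB23-2 library lay inside the DMSO range. In CPM it fell by 0.53 ± 0.10 (edgeR adjusted p = 9.51e-05), and on log2 TPM plus 0.1 it was not called (-0.27, limma adjusted p = 0.051).

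The remaining 3 members are ALKBH4 and ALKBH7, known for roles outside nucleic acid demethylation, and ALKBH6, which has no settled substrate. ALKBH4, known to demethylate a lysine of actin, had 8.16, 8.96 and 8.48 TPM with FB23-2, against 20.78, 19.87 and 22.53 TPM with DMSO. It fell by 1.55 ± 0.10 (edgeR adjusted p = 5.99e-11), and no library overlapped. ALKBH7, a mitochondrial protein with a role in necrotic cell death, had 66.06, 67.0 and 62.19 TPM with FB23-2, against 72.48, 72.27 and 75.2 TPM with DMSO. The groups were separated by a few TPM, and in CPM it fell by 0.41 ± 0.07 (edgeR adjusted p = 6.35e-05). The call held in all 22 other settings, but its size did not: the log2 change was -0.17 on log2 TPM plus 0.1 and -0.85 with GC trends removed.

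ALKBH6 was the second member that was higher with FB23-2. It had 43.65, 45.35 and 44.49 TPM with FB23-2, against 33.03, 30.57 and 32.76 TPM with DMSO, and the groups did not overlap. In CPM it rose by 0.23 ± 0.09 on the log2 scale (edgeR adjusted p = 0.027). That call was lost without DMSO replicate 2 (0.18, adjusted p = 0.119), DMSO replicate 3 (0.23, 0.0602) or FB23-2 replicate 2 (0.21, 0.0793) in edgeR, and the sign turned when trends on GC content were removed (-0.21, edgeR adjusted p = 0.0105). ALKBH6 and ALKBH7 are the most GC-rich members, at 63.5% and 62.8% GC, above 92.1% and 90.5% of tested genes.

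**Figure D2:**
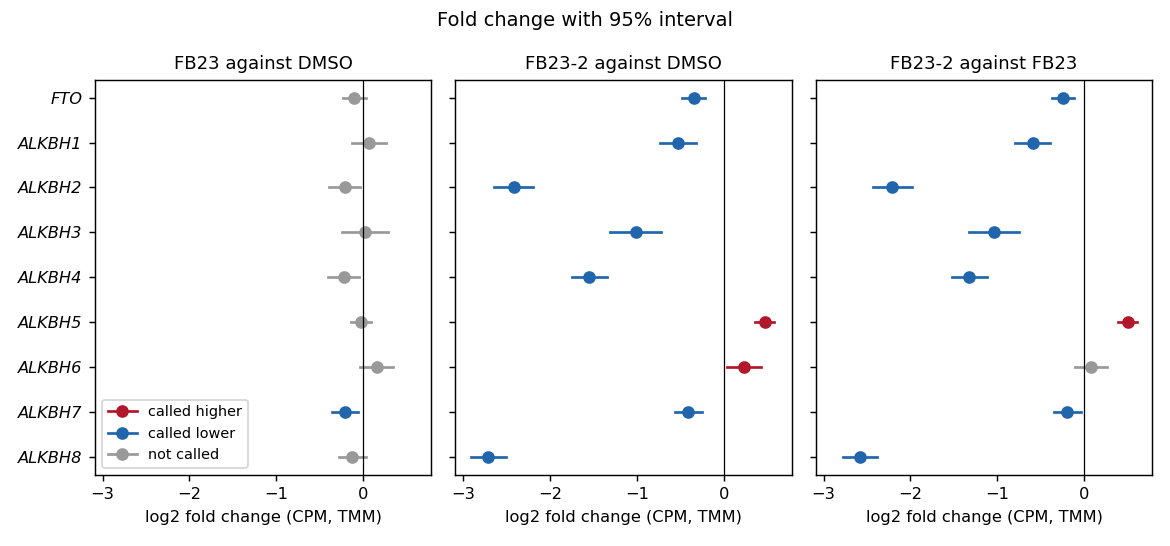
Log2 fold change in TMM-scaled CPM (x axis) of each gene with its 95% interval in the 3 comparisons; red points were called higher, blue lower and grey not called at an adjusted p under 0.05. The changes in both comparisons with FB23-2 ran from -2.71 to 0.50, whereas with FB23 against DMSO all stayed between -0.22 and 0.15.

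The sum of the 9 transcripts differed less between groups than its make-up. Their summed level was 233 to 241 TPM with FB23-2, 237 to 255 TPM with FB23 and 262 to 265 TPM with DMSO. ALKBH5 made up 33.2% ± 0.343 of that sum with FB23-2, 19.1% ± 0.507 with FB23 and 18.1% ± 0.232 with DMSO (SD, n = 3). ALKBH2 made up 4.1% ± 0.394, 15.4% ± 0.558 and 16.5% ± 1.42 in the same 3 groups. The share of FTO overlapped between all groups, at 5.33% ± 0.386 with FB23-2, 5.13% ± 0.408 with FB23 and 5.11% ± 0.247 with DMSO. In the order of levels with FB23-2, ALKBH5 (78.3 TPM) stood first and ALKBH7 (65.1 TPM) second, FTO followed ALKBH6, and ALKBH8 was last at 1.95 TPM (percentile 13.5 of tested genes). ALKBH2, ALKBH1 and ALKBH4 followed FTO, and the library ranges of ALKBH2 and ALKBH1, and of ALKBH1 and ALKBH4, overlapped.

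With FB23 against DMSO the members' log2 fold changes lay between -0.22 and 0.15. Of the 9, 1 was called lower, 0 higher and 8 not called, in a comparison in which 23.5% of tested genes were called, 12.3% as higher and 11.2% as lower (edgeR). Of the 9 members 0, and of all tested genes 1.16%, were called with a change of at least 1 on the log2 scale. The members' median log2 fold change was -0.10, against 0.00 over all tested genes. ALKBH7 was the called member: it had 61.77, 60.06 and 68.58 TPM with FB23, against 72.48, 72.27 and 75.2 TPM with DMSO, and fell by 0.21 ± 0.07 in CPM (edgeR adjusted p = 0.0412). The call was lost in 9 of 22 other settings, among them the replicate block (-0.22, edgeR adjusted p = 0.0718), removal of any 1 DMSO library (adjusted p = 0.0815 to 0.121), of FB23 replicate 1 (0.0952) or 2 (0.196), and of FB23-2 replicate 1 (0.0516).

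FTO was not called with FB23. It had 13.08, 13.04 and 11.95 TPM with FB23, against 13.45, 14.08 and 12.8 TPM with DMSO, and the groups overlapped. The log2 fold change was -0.10 ± 0.06, with a 95% interval of -0.23 to 0.03 (edgeR adjusted p = 0.253). ALKBH5, at 49.5, 44.75 and 47.55 TPM with FB23 and 47.41, 48.08 and 47.32 TPM with DMSO, had a log2 fold change of -0.03 with an interval of -0.14 to 0.08. For ALKBH5 a rise as large as that with FB23-2 (0.47) lies outside the interval.

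Of the other members with FB23, ALKBH2 and ALKBH4 had intervals below 0, and the rest had intervals that included 0. ALKBH2 (-0.21 ± 0.08, edgeR adjusted p = 0.0801) and ALKBH4 (-0.22 ± 0.08, edgeR adjusted p = 0.0658) came nearest to a call. Their intervals, not adjusted for the number of genes, were -0.39 to -0.03 and -0.40 to -0.05. ALKBH2 was called without DMSO replicate 3 (-0.29, edgeR adjusted p = 0.0364) and ALKBH4 without FB23 replicate 3 (-0.32, edgeR adjusted p = 0.0122). With GC trends removed and all libraries kept, ALKBH2 (-0.23, edgeR adjusted p = 0.0335) and ALKBH4 (-0.26, edgeR adjusted p = 0.00984) were called too. ALKBH8 stood at -0.13 (interval -0.29 to 0.03), ALKBH6 at 0.15 (-0.04 to 0.35), ALKBH1 at 0.06 (-0.13 to 0.26) and ALKBH3 at 0.02 (-0.24 to 0.29). CPM ranges were separated from DMSO for 2 of 9 members, ALKBH2 and ALKBH7, and for 37.9% of all tested genes. In TPM the set differed: ALKBH7 was separated again, but ALKBH2 overlapped. ALKBH4 was lower there (16.26 to 19.41 TPM with FB23, against 19.87 to 22.53 TPM with DMSO). ALKBH6 was higher (33.39 to 39.17 TPM with FB23, against 30.57 to 33.03 TPM with DMSO). The share of all genes separated in TPM was not computed.

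FB23-2 against FB23 sets the related compounds side by side and tests their difference directly. Of the 9 members 7 were lower with FB23-2, 1 was higher and 1 was not called, where 81.5% of tested genes were called, 40.4% as higher and 41.1% as lower (edgeR). CPM ranges were separated for 8 members and 81.2% of genes, and 4 members and 32.2% of genes were called with a log2 change of at least 1. ALKBH8 was 5.99-fold lower with FB23-2 than with FB23 (log2 -2.58 ± 0.09, edgeR adjusted p = 4.83e-14), with 1.92, 1.8 and 2.13 TPM against 9.39, 10.68 and 9.45 TPM. ALKBH2 was 4.62-fold lower (log2 -2.21 ± 0.10, edgeR adjusted p = 1.79e-12), with 8.5 to 10.36 TPM with FB23-2 and 36.79 to 39.89 TPM with FB23. Both genes were separated in all libraries.

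ALKBH4 (log2 -1.32 ± 0.09), ALKBH3 (-1.04 ± 0.13) and ALKBH1 (-0.59 ± 0.10) were also lower with FB23-2 than with FB23, with edgeR adjusted p of 4.87e-10, 1.41e-06 and 1.94e-05. ALKBH5 was higher with FB23-2 by 0.50 ± 0.05 on the log2 scale (edgeR adjusted p = 9.42e-08), and the ratio of ALKBH5 to FTO was 5.86 to 6.86 with FB23-2 and 3.43 to 3.98 with FB23. For 3 members the difference between the compounds depended on the scale. FTO was lower in CPM (-0.24 ± 0.06, edgeR adjusted p = 0.00165) but not called with library totals (-0.12, adjusted p = 0.093), upper-quartile factors (-0.08, 0.255) or log2 TPM plus 0.1 (-0.02, limma, 0.85). ALKBH7 was lower in CPM (-0.20 ± 0.07, edgeR adjusted p = 0.02) and stood at 0.04 on log2 TPM plus 0.1 (limma adjusted p = 0.533).

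ALKBH6 was the member not called between the compounds in CPM (0.08, interval -0.11 to 0.26, edgeR adjusted p = 0.409). In TPM its libraries were separated, at 43.65 to 45.35 with FB23-2 and 33.39 to 39.17 with FB23, and it was called higher (0.33, limma adjusted p = 0.000554). With GC trends removed it was called lower (-0.28, edgeR adjusted p = 0.000875). The other 6 members (ALKBH1 to ALKBH5 and ALKBH8) kept their call and direction between the compounds in all 22 other settings.

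**Figure D3:**
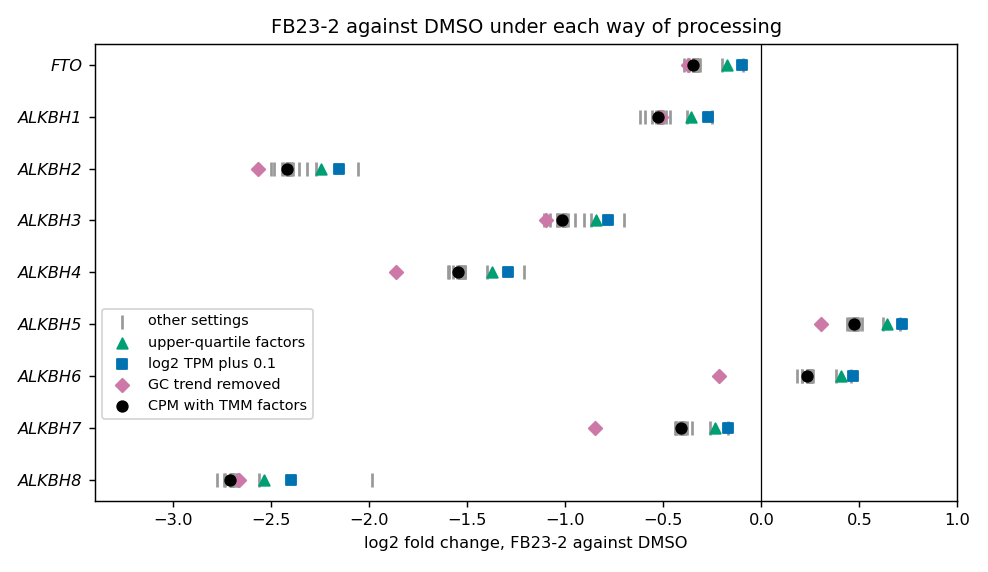
Log2 fold change with FB23-2 against DMSO (x axis) of each gene under the reported fit (black circles) and 22 other settings (grey ticks, with upper-quartile factors as green triangles, log2 TPM plus 0.1 as blue squares and removal of GC trends as pink diamonds). ALKBH2, ALKBH3, ALKBH4 and ALKBH8 stayed at -0.70 or lower throughout and ALKBH5 at 0.31 or higher, whereas FTO came as near to 0 as -0.09 and ALKBH6 changed sign with GC trends removed.

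Each gene is represented by 1 RefSeq transcript in the tables, so values rest on that transcript and hold no isoform detail. A shift between isoforms could not be told apart from a change of the whole gene. On GRCh38, with GENCODE 29 coordinates, FTO lies on chromosome 16 (53701692 to 54158512, plus strand), ALKBH5 on chromosome 17 (18183078 to 18209954, plus), ALKBH8 on chromosome 11 (107502726 to 107565746, minus), ALKBH2 on chromosome 12 (109088188 to 109093631, minus) and ALKBH4 on chromosome 7 (102456238 to 102464876, minus). ALKBH4 had counts that were not whole in 8 of 9 libraries, which means that some of its reads were shared with another gene, and FTO in 1 of 9. Exons of ALKBH4 also overlap those of ORAI2, a calcium channel gene on the opposite strand, by 584 bases. The library kit keeps strand, but the strand setting of the counting was not given, and without it reads from that stretch cannot be told apart. ORAI2 moved the other way, with 13.6 TPM with FB23-2 and 4.16 TPM with DMSO (log2 1.46 ± 0.06, edgeR adjusted p = 1.75e-13). Its highest count in a library, 2404.25, was not whole either. Whether ALKBH4 shared its reads with ORAI2, and how far that moved the ALKBH4 estimate, was not tested. Exons of ALKBH7 overlap those of PSPN, also on the opposite strand, by 104 bases, and PSPN had at most 4 counts in a library. On the same strand, where a stranded count cannot separate reads either, ALKBH3 overlaps the pseudogene SEC14L1P1 by 75 bases (at most 25 counts in a library) and ALKBH6 overlaps AC002116.1 by 1076 bases. All these overlaps were taken over every GENCODE exon of a gene, not only over the RefSeq transcript that was counted (1060 bases for ALKBH6). How much of each overlap lies in the counted transcript was not tested. ALKBH3, ALKBH6 and ALKBH7 had whole counts in all 9 libraries. AC002116.1, and the opposite-strand partners of FTO (AC007347.2, 180 bases) and ALKBH5 (AC087164.1, 357 bases), were not found by symbol in the deposited tables. Their levels could not be read, and whether their reads were counted for ALKBH6, FTO or ALKBH5 was not tested.

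Start sites were compared with their neighbours by a rule chosen after the values were seen, namely the nearest protein-coding gene on the opposite strand that starts within 1000 bases. ALKBH1 and ALKBH4 had one. ALKBH1 starts 51 bases from SLIRP, which encodes a mitochondrial RNA-binding protein, and SLIRP fell by 2.72 ± 0.23 with FB23-2 against DMSO (edgeR adjusted p = 3.89e-09), where ALKBH1 fell by 0.53. ALKBH4 starts 53 bases from LRWD1, which encodes a partner of the origin recognition complex, and LRWD1 rose by 0.31 ± 0.06 (edgeR adjusted p = 0.000197) where ALKBH4 fell by 1.55. At ALKBH1 the pair was called in the same direction, and at ALKBH4 in opposite directions.

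Promoter sequences are shown for 3 members that moved with FB23-2 and for FTO, the labelled target, to show what lies before their start sites. They are the 250 bases before each RefSeq start (GRCh38.p14), written 5′ to 3′ on the gene's own strand, for FTO at chr16:53703906-53704155 (plus), ALKBH8 at chr11:107565736-107565985 (minus), ALKBH4 at chr7:102464864-102465113 (minus) and ALKBH5 at chr17:18183578-18183827 (plus). The FTO and ALKBH5 windows lie inside the GENCODE gene spans given above, since the RefSeq starts used here lie downstream of the GENCODE starts. Which start the cells used was not tested. Capitals mark matches on either strand to GGGCGG, the core of the GC box, and to CCAAT.
FTO: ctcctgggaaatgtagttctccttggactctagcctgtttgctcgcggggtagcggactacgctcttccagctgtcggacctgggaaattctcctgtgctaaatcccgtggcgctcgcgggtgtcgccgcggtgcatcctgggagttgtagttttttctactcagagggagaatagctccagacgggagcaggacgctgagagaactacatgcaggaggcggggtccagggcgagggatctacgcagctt
ALKBH8: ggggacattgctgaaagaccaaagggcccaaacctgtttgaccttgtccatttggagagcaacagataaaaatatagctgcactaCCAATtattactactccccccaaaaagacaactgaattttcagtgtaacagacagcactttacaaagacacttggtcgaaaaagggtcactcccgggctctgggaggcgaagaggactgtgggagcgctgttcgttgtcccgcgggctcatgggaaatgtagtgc
ALKBH4: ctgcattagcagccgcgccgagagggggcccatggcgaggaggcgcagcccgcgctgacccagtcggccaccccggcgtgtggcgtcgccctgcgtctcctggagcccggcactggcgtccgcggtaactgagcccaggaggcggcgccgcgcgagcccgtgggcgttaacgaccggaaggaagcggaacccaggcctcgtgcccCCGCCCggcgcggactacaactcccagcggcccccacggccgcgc
ALKBH5: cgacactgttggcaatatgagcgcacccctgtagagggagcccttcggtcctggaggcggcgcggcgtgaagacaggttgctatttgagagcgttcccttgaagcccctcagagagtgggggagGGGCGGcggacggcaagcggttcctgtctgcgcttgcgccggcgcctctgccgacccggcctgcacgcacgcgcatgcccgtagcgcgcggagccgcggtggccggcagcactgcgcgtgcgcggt
FTO held neither motif, ALKBH8 held 1 CCAAT, and ALKBH4 and ALKBH5, which moved in opposite directions with FB23-2, held 1 GGGCGG each. Over 35116 promoters of the same length, 42.6% held GGGCGG and 32.0% held CCAAT. The ALKBH5 and ALKBH4 windows were rich in CG pairs (32 and 36, above 90.5% and 95.1% of promoters), FTO held 17 and ALKBH8 held 7, against a median of 11.

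Among the other members, CCAAT was found 4 times before ALKBH7, 3 and 4 times before the 2 listed starts of ALKBH6, and 1 time before ALKBH3, where 2.93% of all promoters held 3 or more. GGGCGG was present before ALKBH2 and ALKBH6. The E-box CACGTG, searched the same way, was in 0 of the members' windows and in 6.34% of all. A match describes letters in a window and not a bound site.

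For likeness of pattern, tested genes averaging 3 or more in log2 CPM were ranked by the root mean square difference from a member in centred log2 CPM over the 9 libraries. Of 9475 genes ranked, those nearest to FTO were ATXN1L, a transcriptional regulator related to ataxin-1 (difference 0.035), UHRF1BP1 (0.0371) and RACGAP1, a regulator of cell division (0.0402). Their log2 fold changes with FB23-2 were -0.34, -0.37 and -0.37, near that of FTO, which the choice by likeness over the same libraries fixes. Nearest to ALKBH5 were ZC3H3 (0.0421), TSC22D4 (0.0463) and P4HB, a protein disulphide isomerase (0.0475), and nearest to ALKBH7 were YIF1B (0.0367), HMGA1, a chromatin protein (0.0415), and TKT, transketolase (0.0474). Within the family, ALKBH2 and ALKBH8 were nearest to each other (0.222), as were ALKBH5 and ALKBH6 (0.183), FTO and ALKBH7 (0.127), and ALKBH3 and ALKBH4 (0.269).

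Enzymes that write m6A, m6Am or marks of transfer RNA, with their partners, were read from 2 lists. Of 12 writers of m6A and of the cap-adjacent mark m6Am, 10 were lower with FB23-2 against DMSO, 0 higher and 2 not called (edgeR, median log2 fold change -0.50), where 41.3% of tested genes were called lower. On log2 TPM plus 0.1, 8 were lower and 1 higher (median -0.24), where 4256 of 13365 genes were called lower and 6732 higher. METTL5, which methylates ribosomal RNA, had 48.5 ± 5.24 TPM with FB23-2 and 158.8 ± 4.29 TPM with DMSO (log2 -1.95 ± 0.06), and METTL16, a methyltransferase of U6 RNA, had 5.78 ± 0.612 and 17.9 ± 0.191 TPM (log2 -1.89 ± 0.07). METTL3, the catalytic subunit of the main m6A writer, fell by 1.02 ± 0.06 in CPM, whereas its partner METTL14 was not called (-0.06, edgeR adjusted p = 0.393). RBM15 was called lower in CPM (-0.24 ± 0.05) with levels of 33.9 ± 2.1 TPM with FB23-2 and 33.7 ± 1.39 TPM with DMSO.

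With FB23 against DMSO, 1 of the 12 writers was called, METTL16 as lower (-0.19 ± 0.06, edgeR adjusted p = 0.0376). Among all tested genes 11.2% were called lower in edgeR. On log2 TPM plus 0.1, 0 of the 12 writers were called, where 1485 of 13365 genes were called higher and 923 lower. The writers of the transfer RNA marks on which ALKBH1, ALKBH3 or ALKBH8 act, with their partners, were 12 of 13 lower with FB23-2 and 0 higher, in CPM (median -1.17, with 41.3% of all tested genes called lower) and on log2 TPM plus 0.1 (median -0.93, with 4256 of 13365 called lower). TRMT61A, the catalytic subunit of the enzyme that makes N1-methyladenosine in transfer RNA, had 3.53 ± 0.328 TPM with FB23-2 and 39.8 ± 0.832 TPM with DMSO (log2 -3.72 ± 0.09). TRMT112, the partner that ALKBH8 needs for methylation, had 89.5 ± 1.29 TPM with FB23-2 and 170.4 ± 8.91 TPM with DMSO (log2 -1.17 ± 0.06). With FB23 against DMSO, 3 of 13 and 11.2% of all tested genes were called lower in edgeR. The 3 were TRMT61A (-0.47 ± 0.07), TRMT6 (-0.21) and NSUN2 (-0.15). On log2 TPM plus 0.1, 1 of 13 was called lower, where 923 of 13365 genes were.

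All 10 m6A readers tested were called lower with FB23-2 against DMSO in CPM (median -0.62), where 41.3% of tested genes were called lower. On log2 TPM plus 0.1, 8 were lower and 0 higher, where 4256 of 13365 genes were called lower. HNRNPA2B1 had 384 ± 22.3 TPM with FB23-2 and 809 ± 14.2 TPM with DMSO (log2 -1.33 ± 0.04), and IGF2BP1, which stabilises bound transcripts, had 33.8 ± 2.87 and 61.0 ± 0.165 TPM (log2 -1.11 ± 0.05). YTHDF3 was called in CPM (-0.25 ± 0.06) at equal levels in TPM, with 23.9 ± 1.42 with FB23-2 and 23.9 ± 0.183 with DMSO. With FB23 against DMSO, 3 of 10 readers were lower, IGF2BP1 by 0.19, IGF2BP2 by 0.16 and HNRNPA2B1 by 0.14 (edgeR). Among all tested genes 11.2% were called lower there. On log2 TPM plus 0.1, 1 reader was called lower, where 923 of 13365 genes were.

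Of 10 tested genes of alkylation damage repair and ALKBH3 partners, 2 were higher and 6 lower with FB23-2 against DMSO in CPM (median -0.30), so 8 of 10 were called where 82.6% of all tested genes were. On log2 TPM plus 0.1, 4 were higher and 4 lower, where 6732 of 13365 genes were called higher and 4256 lower. With GC trends removed the median of these genes was -0.47, against -0.11 over all genes. LIG3, a DNA ligase, fell by 1.37 ± 0.06, APEX1, an endonuclease of base excision repair, by 0.91 ± 0.04 and ASCC3, the helicase that works with ALKBH3, by 0.69 ± 0.06, while XRCC1, the scaffold of LIG3, rose by 0.34 ± 0.07, a call that was lost with GC trends removed. With FB23 against DMSO, 4 were higher and 1 lower, where 12.3% and 11.2% of all tested genes were. ASCC1, another ALKBH3 partner, was up by 0.38 ± 0.06 (edgeR adjusted p = 0.000473).

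Of 16 genes that supply or use up the co-substrate 2-oxoglutarate, 6 were higher and 9 lower with FB23-2 against DMSO in CPM, where 41.3% of all tested genes were called in each direction. On log2 TPM plus 0.1 the counts were 7 and 7, where 6732 of 13365 genes were called higher and 4256 lower. With GC trends removed the median of these genes was -0.33, against -0.11 over all genes. IDH2 had 76.6 ± 5.64 TPM with FB23-2 and 33.8 ± 2.26 TPM with DMSO (log2 0.95 ± 0.08), and IDH1 had 80.8 ± 5.48 and 37.6 ± 1.85 TPM (log2 0.85 ± 0.05), both of which make 2-oxoglutarate from isocitrate. IDH3B, a subunit of the NAD-linked enzyme for the same step, fell by 1.62 ± 0.05, and BCAT1, which uses 2-oxoglutarate in branched-chain amino acid transamination, by 1.79 ± 0.05. With FB23 against DMSO, 5 were higher and 1 lower, where 12.3% and 11.2% of all tested genes were. IDH2 was up by 0.38 ± 0.08, OGDH by 0.32 ± 0.05 and BCAT1 down by 0.33 ± 0.05 (edgeR).

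Beside 38 tested dioxygenases of other families that use the same co-substrate, the AlkB family had the lower median with FB23-2 (log2 -0.53 against 0.14). The other families had 19 higher and 15 lower of 38, beside 41.3% of all tested genes called in each direction. On log2 TPM plus 0.1 they had 22 higher and 12 lower (median 0.39), where 6732 of 13365 genes were called higher and 4256 lower. P4HA1 and PLOD2, which hydroxylate collagen, had the highest fold changes: P4HA1 had 128 ± 8.91 TPM with FB23-2 and 15.3 ± 0.469 TPM with DMSO (log2 2.81 ± 0.05), and PLOD2 had 223 ± 12.6 and 39.6 ± 1.14 TPM (log2 2.24 ± 0.05). PLOD3, another collagen hydroxylase, fell by 0.75 ± 0.06, with 41.4 ± 3.7 TPM with FB23-2 and 58.7 ± 1.94 TPM with DMSO. The ribosomal oxygenases listed as MINA (log2 -2.08 ± 0.07) and C14orf169 (-1.13 ± 0.08) were at the lower end. With FB23 against DMSO, 4 of the 38 were higher and 4 lower (edgeR), near the 12.3% and 11.2% of all tested genes. On log2 TPM plus 0.1 the counts were 3 and 2, where 1485 and 923 of all genes were called. With GC trends removed they were 4 and 9, where 1749 and 2516 of all genes were called. The named genes were PHYH (0.44 ± 0.14) and OGFOD3 (0.33 ± 0.06) at the upper end and PLOD3 (-0.30 ± 0.06) and TET3 (-0.26 ± 0.04) at the lower.

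**Figure D4:**
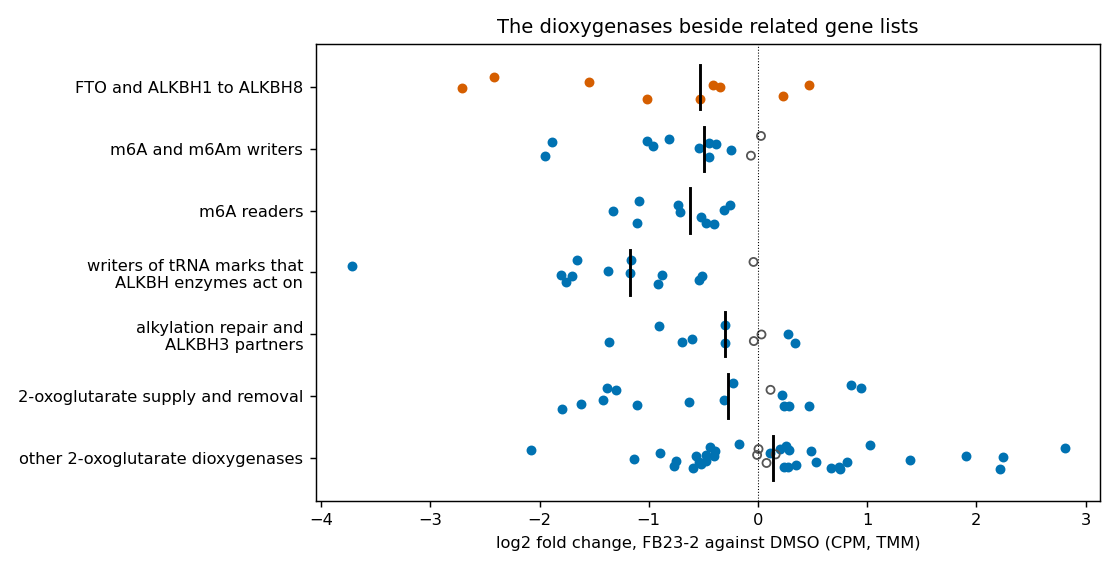
Log2 fold change with FB23-2 against DMSO in TMM-scaled CPM (x axis) for the AlkB family (orange) and 6 related gene lists (blue), 1 point per tested gene, filled where called and open where not, with the list's median as a black line. Medians ran from -1.17 for the writers of transfer RNA marks to 0.14 for the other dioxygenases, with the AlkB family at -0.53.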

How the data were processed

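Poly(A) RNA of cells labelled NB4 was sequenced from 9 libraries after 48 h. The deposited tables hold expected counts and TPM for each gene, per the file headers; RSEM 1.2.31 and GRCh38 are listed by the submitters' processing notes. The authors' FPKM column, also per the file headers, was not used. The aligner, annotation release and strand setting of the authors were not given in the sources used.

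Rounding made the expected counts whole, and edgeR 4.0.16 (R 4.3.3) tested them (filterByExpr, minimum count 10 and total 15, which kept 13365 genes; TMM factors; 1 quasi-likelihood fit of all 9 libraries with group means; F test, two-sided; Benjamini-Hochberg adjustment over all tested genes, called under 0.05). Standard errors were derived from the F statistic, and intervals are 95%. TPM was tested with limma 3.58.1 on log2(TPM + 0.1), whose fold changes understate those of low genes.

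The members and lists were chosen with earlier results of these data known. Named genes were all 9 members, in every list, up to 2 called genes from each end of the fold changes per comparison, and the 3 genes nearest in pattern to FTO, ALKBH5 and ALKBH7. METTL3, METTL14, TRMT112, ASCC3 and, with FB23-2, PLOD3 were named outside this rule after their values were seen, as were the neighbours and exon partners. Other settings were DESeq2 1.42.0 (size factors and Wald test), upper-quartile factors, library totals, an effective length offset, other filters, limma-voom, the 6 libraries compared, a replicate block and leaving out each library; removal of GC trends was added after seeing the data (GC known for 98.4% of tested genes). Promoters are from RefSeq (GRCh38.p14), matched by symbol for 9 of 9 members.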

Additional observations from a re-analysis of the deposited data

How the results depend on the processing

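With FB23-2, the counts of called members stayed within 1.5 times in all 22 other settings (7 to 9 against DMSO, 7 to 9 against FB23). With FB23 against DMSO the count of 1 became 0 with library totals, 0 without a filter, 0 with the replicate block and 3 with GC trends removed, and it was 0 to 2 with 1 library left out. The replicate block lost the ALKBH7 call (-0.22, edgeR adjusted p = 0.0718) and no other member's. Whether the replicate numbers pair the samples could not be settled with so few libraries per group. Deviations of same-numbered libraries correlated at -0.185 to 0.0856, and in 5 of 9 pairings a library correlated best with its own number. Between FB23 and DMSO each FB23 library did so (0.0439, 0.0755 and 0.0589), while between FB23-2 and FB23 no library did. The block gave 2504 called genes with FB23 against DMSO, where the fit without it gave 3144.

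Of the recomputed fold changes of members, 551 kept direction and call, 25 lost the call, 9 gained it and 9 changed sign. The sign changes were ALKBH3 with FB23 against DMSO (-0.0027 with limma-voom, and -0.049 to 0.10 with 1 library left out), ALKBH5 with FB23 (0.0049 without a filter, and -0.056 to 0.023 with 1 library left out), ALKBH6 with GC trends removed (-0.21 with FB23-2 against DMSO and -0.28 against FB23) and ALKBH7 with FB23-2 against FB23 (0.038 on log2 TPM plus 0.1 and 0.037 on log2 TPM plus 1). The cause was not tested for ALKBH3, ALKBH5 and ALKBH6, while for ALKBH7 the offset of 0.24 between the TPM and CPM scales exceeds its change.

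The median of all genes moved to 0.18 with upper-quartile factors, 0.16 with library totals, 0.25 on log2 TPM plus 0.1 and -0.11 with GC trends removed (chosen after seeing the data) for FB23-2 against DMSO. The split of called genes there was 5523 higher and 5518 lower, and 6732 and 4256 on log2 TPM plus 0.1. For FB23 against DMSO it was 1647 and 1497, 1485 and 923 on log2 TPM plus 0.1, 2120 and 1088 without a filter, and 1749 and 2516 with GC trends removed. For FB23-2 against FB23 it was 5395 and 5495, and 6595 and 4130 on log2 TPM plus 0.1. Depth limits ALKBH3, ALKBH8 and ALKBH2 with FB23-2 most (60 to 123 expected counts per library).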
